A study of Rattus norvegicus with 4 samples.

Results

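The enzymes that break down amino acids in liver and turn the released nitrogen into urea were followed through 47 genes, each chosen by its symbol in the deposited table of 32545 listed genes. All 47 symbols were found, each at a single entry. They were placed in 9 pathway groups: the urea cycle, glutamate and glutamine, aminotransferases, serine and histidine, tryptophan, phenylalanine and tyrosine, methionine and sulfur, glycine and one-carbon, and branched-chain amino acids with lysine and proline. Messenger RNA from rat liver was sequenced in 4 libraries, 2 from rats kept active by force (forced activity 1 and 2, the control) and 2 from rats that were also restricted in sleep (sleep restriction 1 and 2). Forced activity is therefore shared by all libraries, and what differs by label is the added restriction of sleep. The title of the series calls the restriction chronic, while the sources used here do not give strain, sex, age or the length of the treatment. Nothing in the labels says that the libraries came from separate animals, so the p-values measure the spread between these samples, which may be technical.

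Liver is the main site of amino acid breakdown. Aminotransferases and dehydratases take the amino group off, glutamate dehydrogenase frees it as ammonia, and the urea cycle in hepatocytes around the portal vein fixes that ammonia together with aspartate as urea. Ammonia that escapes is caught as glutamine by a thin layer of hepatocytes around the central vein. The carbon skeletons go to gluconeogenesis, ketone bodies or, through methionine and glycine, to methyl groups, and many of these genes are known to respond to glucagon, glucocorticoids and dietary protein.

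The tabulated counts summed to between 508203 and 520276 per library, and both replicate 1 libraries had more genes above 0 (14008 and 14105) than both of replicate 2 (11943 and 10952). Fractions of a count are included, but 99.99% of the values above 0 in sleep restriction 2 are whole, against 7.87% to 9.12% elsewhere. Its number of genes above 0 is therefore not directly comparable with the others. All 12 hepatocyte markers were above 0 in every library, with summed levels of 219270 to 231538 CPM (read counts scaled to a common library size, as in all values below). The 12 endothelial markers summed to 305 and 452 CPM in forced activity 1 and sleep restriction 2, and to 817 and 785 CPM in forced activity 2 and sleep restriction 1, so they split the libraries across the groups. In whole liver, fewer cells of a type and less RNA per cell cannot be told apart.

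None of the genes of amino acid breakdown or the urea cycle differed between the groups past an adjusted p of 0.05 in edgeR. Of the 47, 46 passed the filter on low counts, and 0 were called higher and 0 lower, against 1 gene called among the 4986 tested (0.0201%). Their adjusted p was 0.978 or more. DESeq2 and limma-voom also called 0 of them. At an unadjusted p under 0.05 there were 2 of them, Tdo2 and Aass, both higher under sleep restriction, where the share over all tested genes was 4.25%. That count depended on the fit: it was 0 with DESeq2, without the gene filter and with a filter at 5 CPM, and with limma-voom it was 1 (Tdo2). The median log2 change of sleep restriction over forced activity was -0.05 for the 46 and 0.00388 for all tested genes. It ran from -0.45 for Gldc to 0.61 for Amt, and 44 of the 46 lay within 0.5 of no change (95.7%, against 90.1% of all tested genes).

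Both sleep restriction libraries lay above both forced activity libraries for 9 of the 46 genes (Nags, Cps1, Ass1, Gpt2, Tdo2, Kynu, Cdo1, Amt and Aass), where 17.2% of all tested genes did so. Both lay below for 7 (Asl, Got2, Kmo, Pcbd1, Fah, Gnmt and Gldc), where the share of all tested genes was 15.3%. The 16 genes with groups apart made up 34.8% of the 46, close to the 32.5% over all tested genes. A 95% interval from the moderated standard error (SE) lay within a log2 change of -1 and 1, for 39 of the 46 genes. For the remaining 7 (Gpt2, Cth, Csad, Gldc, Amt, Aass and Prodh2) the interval reached past 1 of these bounds.

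**Figure D1:**
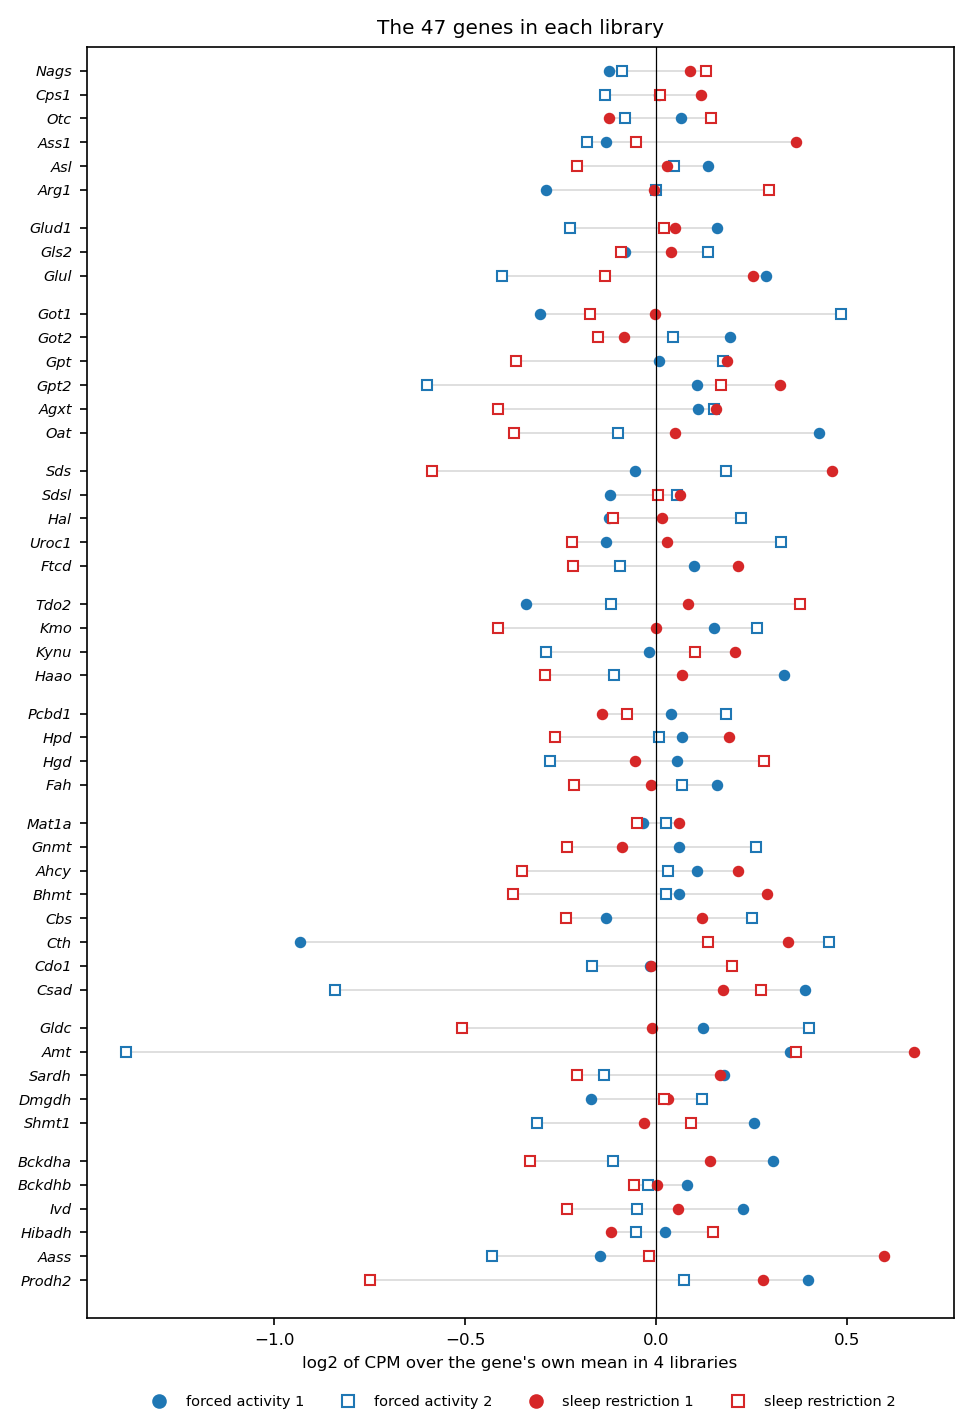
Each row is 1 of the 47 genes, in pathway order, and each symbol is 1 library, placed by the log2 of its CPM over the gene's own mean in the 4 libraries. Blue marks forced activity and red sleep restriction, with filled circles for replicate 1 and open squares for replicate 2. Colours are mixed in most rows, and the widest rows belong to Amt, Cth and Csad, where a single forced activity library is low.

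**Figure D2:**
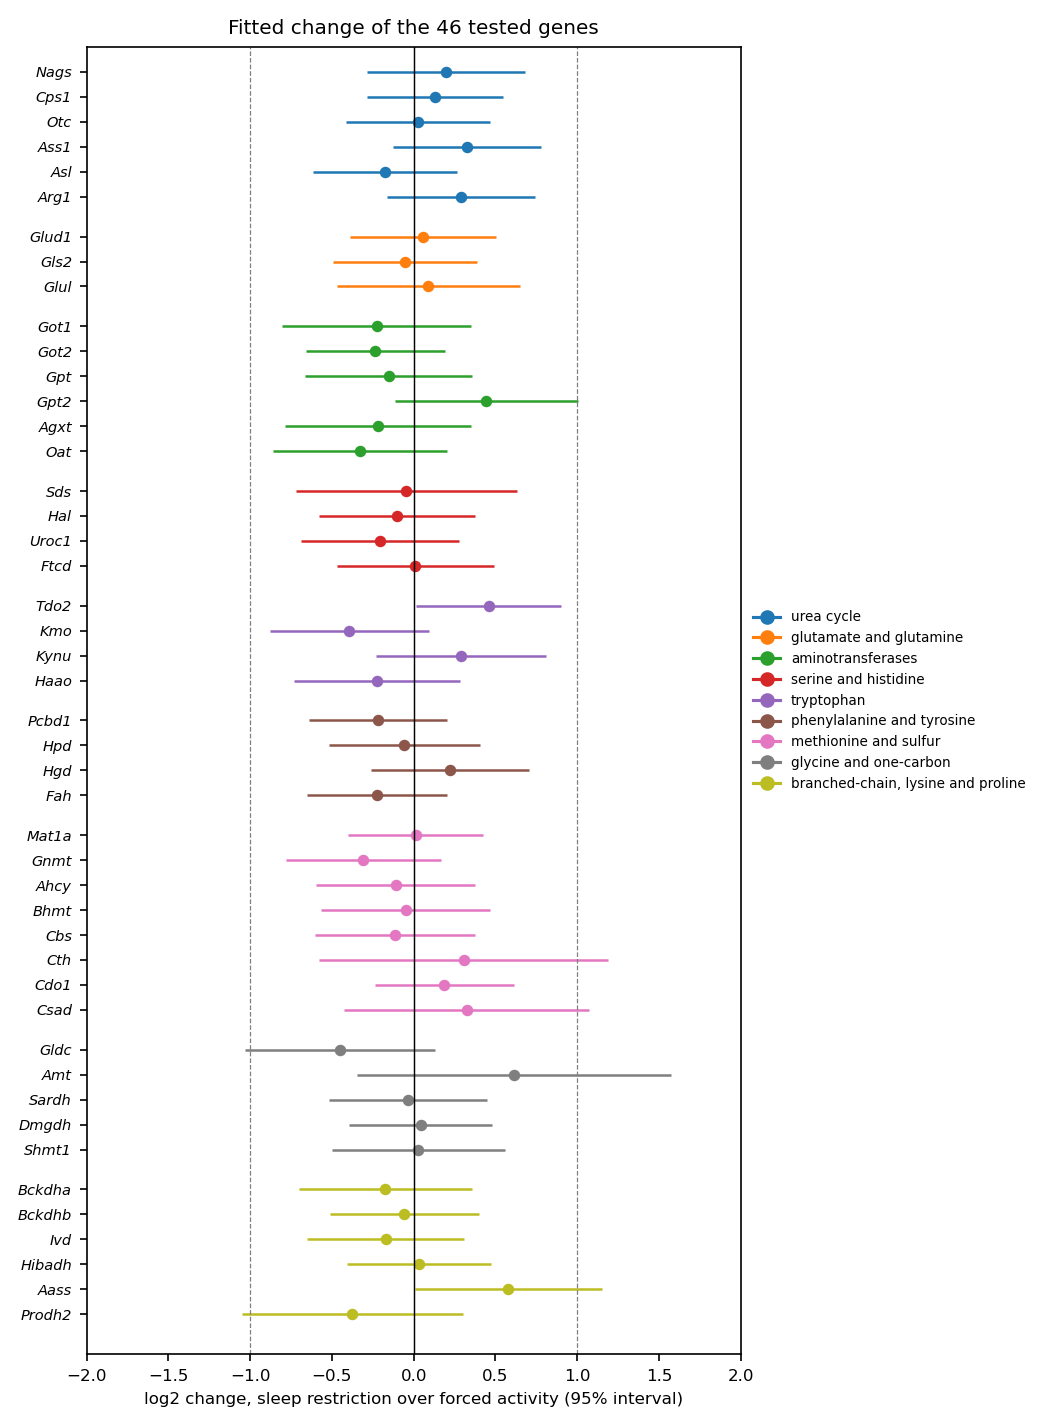
Points give the fitted log2 change of sleep restriction over forced activity for the 46 tested genes, coloured by pathway group, and bars give the 95% interval. Dashed lines stand at -1 and 1. The intervals of Tdo2 (0.02 to 0.90) and Aass (0.01 to 1.15) lie just above 0, without adjustment for the number of genes.

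Upstream sequence is shown for Cps1, the gate of the urea cycle, for Tdo2 and Aass, which had the smallest unadjusted p, and for Kmo, which came next. RefSeq promoter windows matched 39 of the 47 symbols, on build GRCr8, which is not the build of the counts. The 250 bases before the start are printed 5′ to 3′ in the direction of the gene, from chr9:76063613-76063862 (plus strand) for Cps1, chr2:169585587-169585836 (minus strand) for Tdo2, chr13:90089271-90089520 (plus strand) for Kmo and chr4:52628812-52629061 (minus strand) for Aass. Capitals mark, on either strand, the TATA box string TATAAA, the string CCAAT of the CCAAT box, and the HNF4 motif CAAAGTCCA. The TATA box string occurs in Tdo2 alone of the 4, and there it begins 228 bases before the start.
Cps1: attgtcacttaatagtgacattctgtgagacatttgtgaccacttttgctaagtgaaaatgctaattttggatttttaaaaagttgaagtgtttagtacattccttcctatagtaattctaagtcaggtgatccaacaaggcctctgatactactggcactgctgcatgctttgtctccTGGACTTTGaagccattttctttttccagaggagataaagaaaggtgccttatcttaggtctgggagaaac
Tdo2: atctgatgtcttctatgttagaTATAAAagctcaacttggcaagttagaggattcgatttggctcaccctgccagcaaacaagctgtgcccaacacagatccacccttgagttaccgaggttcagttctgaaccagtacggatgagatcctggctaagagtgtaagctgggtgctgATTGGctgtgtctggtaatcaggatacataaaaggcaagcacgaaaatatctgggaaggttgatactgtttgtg
Kmo: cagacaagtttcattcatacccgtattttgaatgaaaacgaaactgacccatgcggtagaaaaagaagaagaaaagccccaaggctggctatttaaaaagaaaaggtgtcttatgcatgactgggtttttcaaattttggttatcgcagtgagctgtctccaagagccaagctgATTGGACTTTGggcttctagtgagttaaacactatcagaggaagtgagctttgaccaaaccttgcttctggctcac
Aass: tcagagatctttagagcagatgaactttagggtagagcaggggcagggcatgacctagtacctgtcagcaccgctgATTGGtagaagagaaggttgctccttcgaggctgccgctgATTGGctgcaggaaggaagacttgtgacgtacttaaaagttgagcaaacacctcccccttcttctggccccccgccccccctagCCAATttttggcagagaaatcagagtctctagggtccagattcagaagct
The HNF4 motif CAAAGTCCA was found in the Cps1 and Kmo windows, in the reverse direction, starting 71 and 74 bases before the start. In Kmo its last 3 letters overlap a reverse CCAAT. Among the 39 windows 2 held it, against 0.338% of 33469 windows of the same length. Each matched symbol gave 1 window, while the shares over all count every window, also where a symbol has several. CCAAT was found in 21 of the 39 windows (53.8%, against 34.0% of all), with 3 copies in Aass and 1 in Tdo2, and TATAAA in 5 (12.8%, against 12.9%). The E-box CACGTG, a letter string bound by clock factors, was found in 2 windows, those of Cth and Shmt1 (5.13%, against 5.59%). The cyclic AMP element TGACGTCA, the C/EBP string TTGCGCAA and the palindromic glucocorticoid response element were found in 0 of the 39, and in 1.59%, 0.140% and 0.373% of all windows. The motifs were chosen with the counts in view, and a match describes letters only.

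Among the urea cycle genes 5 of 6 had a positive log2 change and 0 passed the test, with a median of 0.16. Over all tested genes 2605 of 4986 were positive, and sign counts in groups this small are descriptions only. Nags makes N-acetylglutamate, the activator that Cps1 needs, and stood at 64.8 and 66.4 CPM in the forced activity libraries 1 and 2, and at 75.1 and 77.3 CPM in the sleep restriction libraries 1 and 2. All pairs of CPM below keep this order. Its groups did not overlap, on counts of only 30.6 to 38 per library, and the log2 change was 0.20 (SE 0.22, unadjusted p 0.383). Cps1, carbamoyl phosphate synthetase, fixes ammonia in mitochondria and lies at chromosome 9 from 74124016 to 74236274 in rn6 (ENSRNOG00000013704.5). It had 4333 and 3932 CPM under forced activity and 4684 and 4348 CPM under sleep restriction, with a log2 change of 0.13 (SE 0.19, interval -0.29 to 0.54). The forced activity 1 and sleep restriction 2 values of Cps1 nearly met, although the groups stayed apart.

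Otc, which joins carbamoyl phosphate to ornithine, measured 454 and 411 CPM under forced activity and 399 and 480.2 CPM under sleep restriction. Both controls lay between the sleep restriction libraries, and the log2 change was 0.02 (interval -0.41 to 0.46). Ass1 adds aspartate in the cytosol and had 2011 and 1946 CPM under forced activity and 2841 and 2126 CPM under sleep restriction. Sleep restriction 1 stood well above the remaining 3 libraries, and the log2 change of 0.33 (SE 0.20, unadjusted p 0.139) was 0.50 within the replicate 1 libraries and 0.13 within the replicate 2 libraries. It was 0.10 when sleep restriction 1 was left out. Asl, which splits argininosuccinate, was the 1 member of the cycle with a negative value, at 297 and 279 CPM against 276 and 234 CPM (log2 change -0.17). The Asl interval overlaps that of Crcp, which held 44.2 counts over the 4 libraries against 534 for Asl.

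Arg1, the liver arginase that releases urea, measured 1212 and 1481 CPM under forced activity and 1476 and 1819 CPM under sleep restriction. Forced activity 2 and sleep restriction 1 were almost equal, so the groups overlapped, while the differences within replicate 1 and replicate 2 were alike at 0.28 and 0.30. The log2 change of Arg1 was 0.29 (SE 0.20, unadjusted p 0.186), and it ran from 0.12 to 0.44 with 1 library left out. Summed over its 6 genes, the urea cycle held 0.777% and 0.801% of all counts in the controls, and 0.929% and 0.858% under sleep restriction. The order of groups in this sum follows Cps1 and Ass1, which hold most of its counts, and no test was made of the sum.

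**Figure D3:**
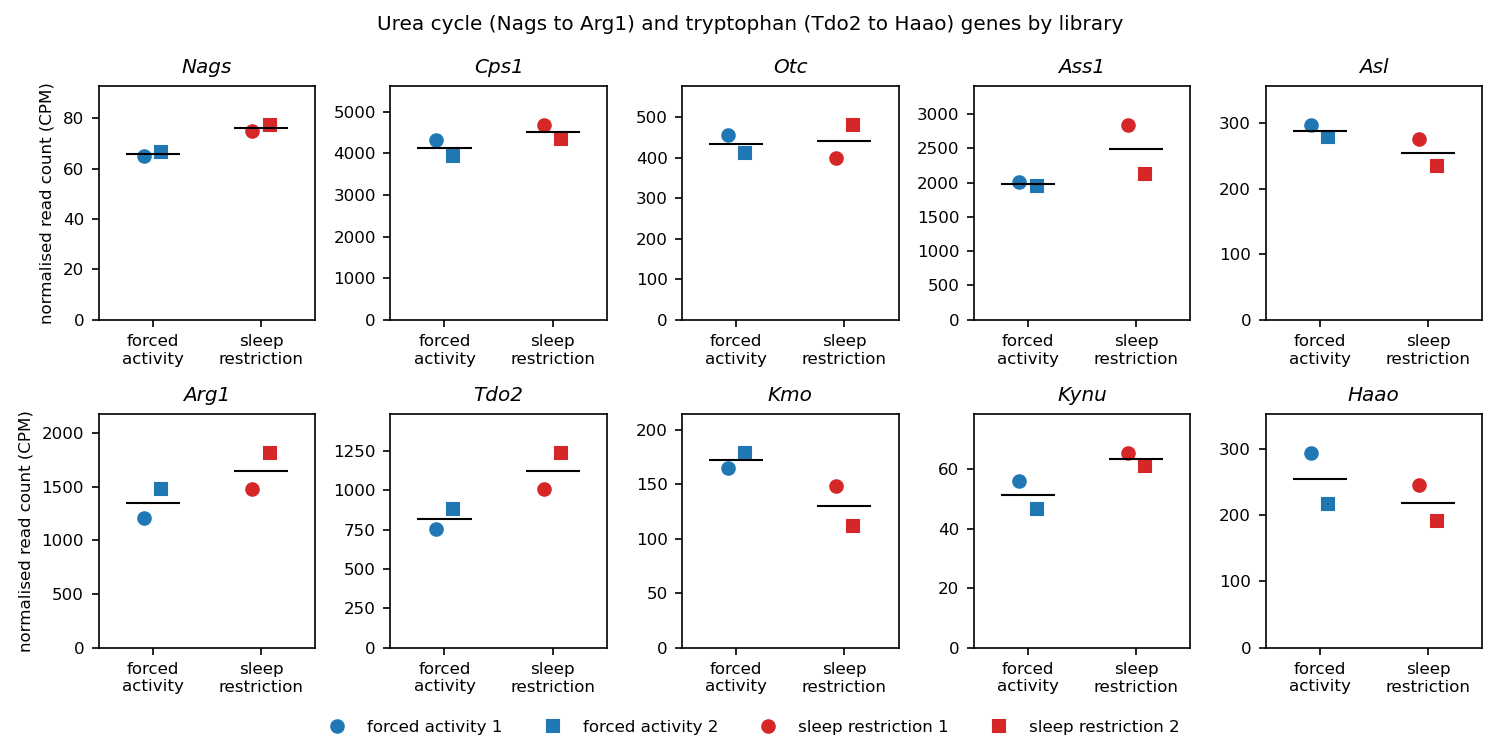
Normalised read counts (CPM, each axis from 0) of the 6 urea cycle genes and the 4 tryptophan genes in each library, with blue for forced activity, red for sleep restriction, circles for replicate 1, squares for replicate 2 and a black line at the mean of 2 libraries. Sleep restriction 1 stands well above the rest for Ass1. Both sleep restriction libraries lie above both controls for Nags, Cps1, Ass1, Tdo2 and Kynu, and below both for Asl and Kmo.

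The glutamate and glutamine genes link amino groups to ammonia, and 0 of 3 passed the test. Glud1, glutamate dehydrogenase, had 1293 and 991 CPM under forced activity and 1199 and 1174 CPM under sleep restriction (log2 change 0.06, interval -0.39 to 0.50). Gls2, the liver glutaminase of periportal cells, measured 289 and 336 CPM against 314 and 287 CPM, with a log2 change of -0.05. Glul, glutamine synthetase of the cells around the central vein, measured 819.9 and 508 CPM under forced activity and 801 and 612 CPM under sleep restriction. In Glul both replicate 1 libraries were high and both replicate 2 libraries low, so the spread ran with replicate number and not with the group (log2 change 0.09, SE 0.25). All 3 genes had opposite signs within replicate 1 and replicate 2.

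The aminotransferases move amino groups onto keto acids, and 0 of 6 passed the test. Their median log2 change was -0.22, but it was 0.11 within replicate 1 and -0.40 within replicate 2. Of the 6 genes 4 were positive within replicate 1 and 1 within replicate 2. In the fit 5 of 6 were negative. The exception was Gpt2, the mitochondrial alanine aminotransferase, at 121 and 74.0 CPM under forced activity and 140.4 and 126 CPM under sleep restriction (log2 change 0.44, SE 0.25, unadjusted p 0.109). Forced activity 2 was the low library there, and the log2 change was 0.13 without it. Its cytosolic counterpart Gpt had 188 and 211 CPM against 212 and 144 CPM, a log2 change of -0.15. The interval of Gpt (-0.67 to 0.36) overlapped that of Gpt2, which began at -0.12, and the difference between these paralogs was not tested.

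Got1 and Got2 are the cytosolic and mitochondrial aspartate aminotransferases. Got2 was lower in both sleep restriction libraries, at 473 and 427 CPM under forced activity and 391 and 372 CPM under sleep restriction (log2 change -0.23, SE 0.19, unadjusted p 0.248). Got1 had 175 and 302 CPM against 215 and 191 CPM, so its forced activity libraries lay on either side of both sleep restriction libraries. Oat, which turns ornithine into glutamate semialdehyde, measured 368 and 256 CPM under forced activity and 284 and 212 CPM under sleep restriction. Its groups overlapped, and its log2 change of -0.33 (SE 0.24) was -0.38 and -0.26 within replicate 1 and replicate 2, but -0.04 without forced activity 1. Agxt, which detoxifies glyoxylate with alanine, measured 58.5 and 60.2 CPM against 60.5 and 40.7 CPM, with sleep restriction 2 low.

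In serine and histidine breakdown all 4 tested genes had a positive log2 difference within replicate 1 and a negative one within replicate 2, and 0 passed the test. Sds, serine dehydratase, a gene known for its induction by glucagon and protein feeding, measured 103 and 121 CPM under forced activity and 147 and 71.2 CPM under sleep restriction. Sleep restriction held both the highest and the lowest value of Sds, and the log2 change was -0.04 (SE 0.30, interval -0.72 to 0.63). Hal, histidase, which opens histidine breakdown, had 129 and 164 CPM against 142 and 130.2 CPM. Uroc1, urocanase, the next enzyme, had 359 and 493 CPM against 402 and 338 CPM. Ftcd, which passes the formimino group to folate, had 329.9 and 288 CPM against 357 and 265 CPM, and all 3 histidine genes overlapped between groups, with log2 changes of -0.10, -0.21 and 0.01. Sdsl, a relative of Sds, was the 1 gene of the 47 under the filter, with 4.4 and 5.4 counts in the controls against 5.2 and 5.

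Tryptophan breakdown through kynurenine was the group in which all 4 genes kept their sign within both replicate numbers, 2 positive and 2 negative, and 0 passed the adjusted test. For Tdo2, Kmo and Kynu, whose groups were apart, the same sign follows from that separation. Tdo2, tryptophan dioxygenase, takes the first step and is a classical glucocorticoid-induced liver enzyme. It lies at chromosome 2 from 180897011 to 180914940 in rn6 (ENSRNOG00000011612.3) and measured 755 and 880 CPM under forced activity and 1011 and 1239 CPM under sleep restriction. Both sleep restriction libraries of Tdo2 were above both controls, from 818 ± 89.0 to 1125 ± 161 CPM (SD, n = 2), with a log2 change of 0.46 (SE 0.20, unadjusted p 0.0438, adjusted p 0.978). Within replicate 1 and replicate 2 it was 0.42 and 0.49, and it stayed between 0.30 and 0.59 with any 1 library left out.

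Kmo, kynurenine monooxygenase, acts further down and measured 166 and 179 CPM under forced activity and 149 and 112 CPM under sleep restriction. Both sleep restriction libraries of Kmo were below both controls (log2 change -0.39, SE 0.22, unadjusted p 0.101), by -0.15 within replicate 1 and -0.66 within replicate 2. Kynu, kynureninase, had 56.2 and 46.5 CPM against 65.5 and 61.0 CPM (log2 change 0.29), on 23.9 to 32.2 counts per library. Haao, which opens the hydroxyanthranilate ring, had 295 and 217 CPM against 245 and 191 CPM (log2 change -0.22), with overlapping groups. The 4 genes together held 0.118% and 0.131% of counts in the controls, and 0.140% and 0.151% under sleep restriction, a sum led by Tdo2.

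Of the 4 phenylalanine and tyrosine genes 3 were negative and 0 passed the test, with a median log2 change of -0.14. Pcbd1, which recycles the pterin cofactor of phenylalanine hydroxylase, measured 443 and 489.6 CPM under forced activity and 391 and 409 CPM under sleep restriction (log2 change -0.22, SE 0.19). Fah, the last enzyme of tyrosine breakdown, had 498 and 468 CPM against 442 and 385 CPM (log2 change -0.22, SE 0.19). Both genes were lower in each sleep restriction library than in either control. Hpd, which makes homogentisate, had 2551 and 2446 CPM against 2777 and 2023 CPM, so that sleep restriction held its highest and lowest library. Hgd, which opens the homogentisate ring, had 278 and 221 CPM against 257 and 326 CPM, and its log2 change of 0.22 was -0.11 within replicate 1 and 0.56 within replicate 2.

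The methionine and sulfur genes were split evenly, 4 positive and 4 negative, with a median log2 change of -0.02 and 0 past the test. Mat1a, which makes the methyl donor S-adenosylmethionine in adult liver, was the steadiest gene of the 47, at 3289 and 3427 CPM under forced activity and 3514 and 3256 CPM under sleep restriction. Its highest library was 1.08 times its lowest, and the interval of its log2 change ran from -0.40 to 0.42. Gnmt, which uses up spare methyl groups on glycine, measured 107 and 123 CPM against 96.7 and 87.5 CPM (log2 change -0.31, SE 0.21, unadjusted p 0.180). Its groups did not overlap, and its interval overlaps that of Pex6, which held 90 counts over the 4 libraries against 204 for Gnmt. The sources used here do not say how reads in such overlaps were assigned.

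Ahcy, which clears S-adenosylhomocysteine, had 1319.6 and 1251 CPM under forced activity and 1419 and 960.4 CPM under sleep restriction. Bhmt, which remethylates homocysteine with betaine, had 1290.3 and 1262 CPM against 1515 and 954 CPM. In both genes the controls were close together and sleep restriction 1 and 2 lay above and below them, with log2 changes of -0.11 and -0.05. Cbs, the first step of transsulfuration, had 289 and 377 CPM against 344 and 269 CPM, a log2 change of -0.12.

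Cth and Csad varied most among the genes of this group, each through a single control library. Cth, which releases cysteine, measured 139.6 CPM in forced activity 1, 365 CPM in forced activity 2, and 339 and 293 CPM under sleep restriction. Csad, on the route from cysteine to taurine, measured 516 CPM in forced activity 1, 219.7 CPM in forced activity 2, and 445 and 476 CPM under sleep restriction. The low library was thus forced activity 1 for Cth and forced activity 2 for Csad. Their log2 changes of 0.31 and 0.33 became -0.21 and -0.17 when that library was left out, and 1.14 and 1.05 when the other control was left out. Cdo1, which oxidises cysteine and also feeds taurine synthesis, had 1735 and 1560.5 CPM against 1739.6 and 2014.5 CPM, a log2 change of 0.19 (SE 0.19) that was 0.00 within replicate 1 and 0.37 within replicate 2.

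Of the glycine and one-carbon genes 3 were positive and 2 negative, with a median log2 change of 0.03 and 0 past the test. Gldc and Amt are subunits of the same mitochondrial glycine cleavage system and had the lowest and the highest log2 change of the 46. Gldc, the decarboxylase, measured 50.4 and 61.1 CPM under forced activity and 46.0 and 32.6 CPM under sleep restriction (log2 change -0.45, SE 0.26, unadjusted p 0.116). Amt, the aminomethyltransferase, had only 9.5 and 3.1 counts in the controls against 12.4 and 10. Its log2 change of 0.61 (SE 0.43) was 0.06 without forced activity 2, the low library, so the value rests on that library. Sardh and Dmgdh, which strip methyl groups from sarcosine and dimethylglycine, had log2 changes of -0.03 and 0.04, and Shmt1, which exchanges serine and glycine, had 0.03. The CPM of Sardh were 396 and 318 against 393 and 303, those of Dmgdh 370.4 and 453 against 426 and 423, and those of Shmt1 114 and 76.9 against 93.4 and 102.

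In the group of branched-chain amino acids, lysine and proline 4 of 6 were negative, with a median log2 change of -0.11 and 0 past the adjusted test. Aass makes and splits saccharopine at the head of lysine breakdown and lies at chromosome 4 from 50152452 to 50200328 in rn6 (ENSRNOG00000039494.4). It measured 83.7 and 68.7 CPM under forced activity and 140.2 and 91.6 CPM under sleep restriction, with sleep restriction 1 far above the rest. The log2 change of Aass was 0.58 (SE 0.26, unadjusted p 0.0470, adjusted p 0.978), with 0.70 within replicate 1 and 0.41 within replicate 2. It was 0.24 without sleep restriction 1. Prodh2, which oxidises hydroxyproline, measured 139.9 and 112 CPM against 129 and 63.1 CPM (log2 change -0.37, SE 0.30), where sleep restriction 2 was the low library, and the value was 0.03 without it.

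Of the 4 branched-chain genes 3 had a negative log2 change and 0 passed the test. Bckdha and Bckdhb encode the decarboxylase subunits of the branched-chain ketoacid dehydrogenase, and had log2 changes of -0.17 (interval -0.70 to 0.36) and -0.06 (interval -0.51 to 0.40). Bckdhb measured 128 and 119 CPM under forced activity and 121 and 116 CPM under sleep restriction, and Bckdha 215 and 161 CPM against 192 and 138 CPM. Ivd, which acts on leucine, had 177 and 146 CPM against 157 and 128 CPM (log2 change -0.17), and Hibadh, which acts on valine, had 394 and 374 CPM against 357 and 429 CPM (log2 change 0.03). All 4 overlapped between groups.

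A log2 difference of the same sign within replicate 1 and within replicate 2 was found for 24 of the 46 genes (52.2%, against 56.3% of all tested genes), 10 of them positive and 14 negative. The median was 0.07 within replicate 1 and -0.18 within replicate 2, against 0.00711 and 0.00792 over all tested genes. Of the 22 genes with opposite signs, 15 were positive within replicate 1 and negative within replicate 2. Sleep restriction 2 was the lowest library for 24 of the 46 (52.2%, against 30.8% of all tested genes) and sleep restriction 1 for 3 (6.52%, against 19.7%). To find the lowest library, the 46 were scaled by totals over tested genes, and all tested genes by totals over all listed genes. Sleep restriction 2 also had the fewest genes above 0. Of its values above 0, 99.99% were whole counts, against 7.87% to 9.12% in the remaining libraries, so the numbers above 0 are not directly comparable. Counting noise may differ between the libraries for the same reason. Sleep restriction 2 had the highest sum of hepatocyte markers (231538 CPM), of which Alb alone held 144506 CPM. Among these markers Alb, Serpina1, Fgb and Hnf4a were highest in sleep restriction 2, while Ttr, Apoa1, Ahsg and Cyp2e1 were lowest there. Sums below those of sleep restriction 1 included endothelial (452 against 785 CPM), macrophage (794 against 1132 CPM) and red cell (761 against 1241 CPM). The lymphocyte sum was higher (36.6 against 24.4 CPM). Forced activity 1 was lower than sleep restriction 2 for endothelial (305 CPM) and macrophage (719 CPM) markers, but not for red cell markers (932 CPM). The part of these in the split was not tested.

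**Figure D4:**
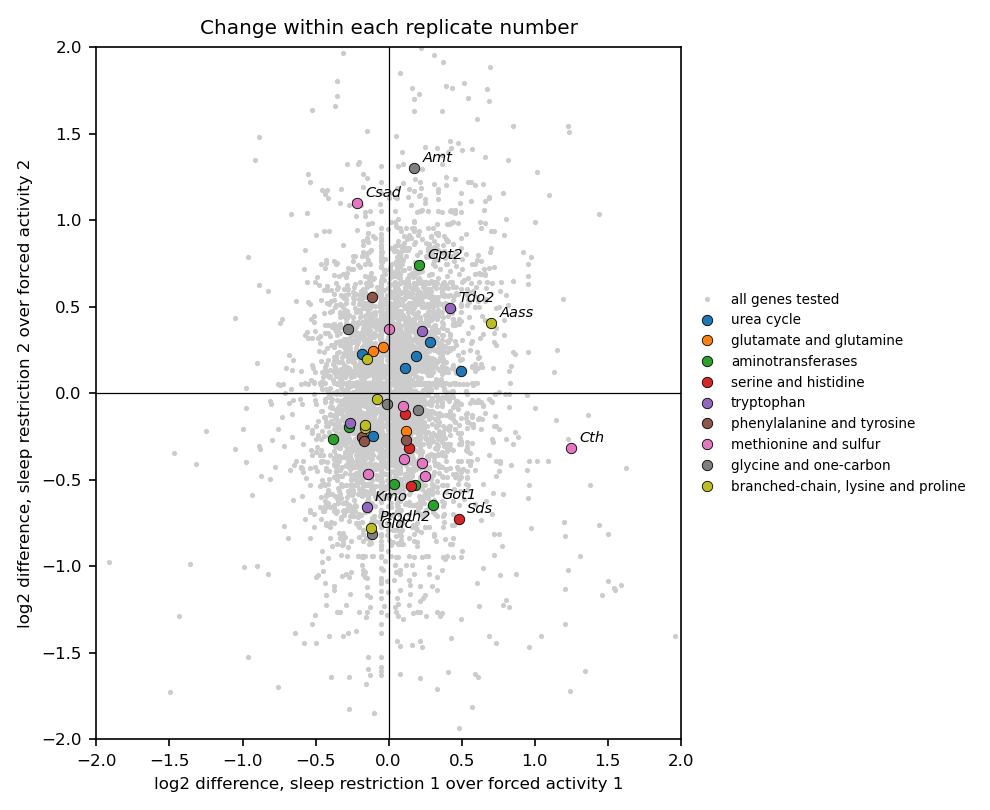
Each point is 1 gene, placed by the log2 difference of sleep restriction 1 over forced activity 1 (horizontal) and of sleep restriction 2 over forced activity 2 (vertical). Grey points are all tested genes, of which 16 lie outside the plotted range, and coloured points are the 46 genes by pathway group. Tdo2 and Aass lie in the upper right, Cth far right and Csad upper left, and the serine and histidine genes all lie in the lower right.

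**Figure D5:**
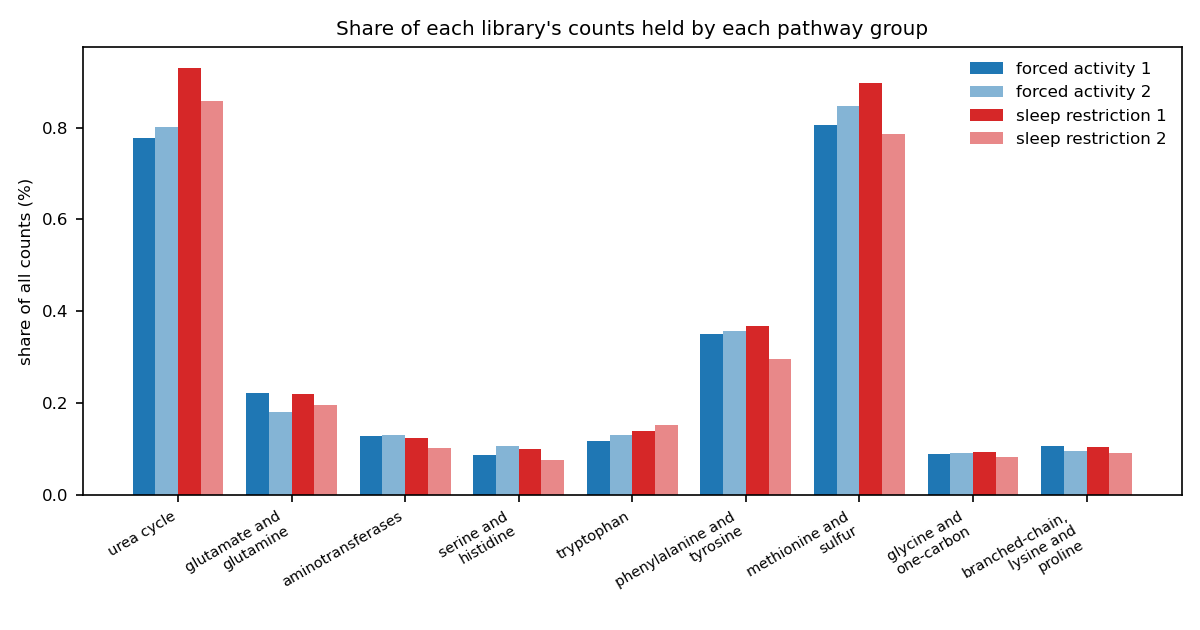
Bars give the percent of each library's total counts held by each pathway group, from 0. The 47 genes together held 2.68% and 2.74% of the controls and 2.98% and 2.64% of the sleep restriction libraries, so their summed share was highest in sleep restriction 1 and lowest in sleep restriction 2.

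Other genes of these pathways, taken from a list of transporters, further enzymes and cofactor genes, were read beside the 47. Of 77 entries found 60 were tested, and 0 were called higher and 0 lower, with 26 positive, 34 negative and a median log2 change of -0.05. The smallest unadjusted p belonged to Grhpr, the glyoxylate reductase, at 699.7 and 668 CPM under forced activity and 496 and 488 CPM under sleep restriction (log2 change -0.47, SE 0.19, unadjusted p 0.0295). Mat2a, the S-adenosylmethionine synthetase form of extrahepatic tissue and growing liver, followed with 38.6 and 41.5 CPM against 51.1 and 75.3 CPM (log2 change 0.62, unadjusted p 0.0402). Both genes had groups apart, from which the same sign within both replicate numbers follows. The log2 change of Mat2a was 0.33 without sleep restriction 2. Aqp9, a channel for glycerol and urea, had a log2 change of -0.44 (SE 0.20), and Slc7a2, a carrier of arginine and lysine, had 0.57 (SE 0.29), or 0.16 without sleep restriction 1.

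Among 10 tested entries of regulators 0 were called and 1 had an unadjusted p under 0.05. Hnf4a, a nuclear receptor that maintains hepatocyte genes, measured 439 and 482 CPM under forced activity and 669 and 826 CPM under sleep restriction. Both sleep restriction libraries of Hnf4a lay above both controls, with a log2 change of 0.69 (SE 0.20, unadjusted p 0.00574, adjusted p 0.978) that was 0.61 within replicate 1 and 0.77 within replicate 2. Ppara, the receptor of the fasting response, had a log2 change of 0.54 (SE 0.37) on overlapping groups, or 0.13 without sleep restriction 1.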

How the data were processed

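Liver messenger RNA of 2 forced activity and 2 sleep restriction libraries was analysed from 1 table of expected counts per Ensembl gene. The submitters' processing notes name CASAVA, STAR 2.4.1d and the build rn6, with no role for each, and the sources used here do not give the counting program. The expected counts, as the authors deposited them, are multiples of 0.1 with nearly equal totals, and 99.99% of the values above 0 in sleep restriction 2 are whole, against 7.87% to 9.12% in the remaining libraries, as a mean over random draws to equal depth would give. This reading comes from the values and the table's own name, which also marks sense strand. Such a mean has less counting noise than a plain count, which the test does not model. On this reading sleep restriction 2 would hold plain counts, with more counting noise than the remaining libraries.

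Counts were rounded and fitted over all genes with edgeR 4.0.16 in R 4.3.3 (TMM factors of 0.972 to 1.04, filterByExpr with a minimum count of 10, robust quasi-likelihood, group as the only term), with Benjamini-Hochberg adjustment over 4986 genes and a threshold of 0.05. CPM are TMM-scaled counts per 1e6 counts in tested genes, given in the order of replicate 1 and 2. Fold changes are log2 values with a prior count of 2, SE is the change over the square root of F, and the 95% interval uses the moderated degrees of freedom. Levels are not scaled by length and are compared between libraries only. The fit was tested on simulated data. Alternatives were other scalings, DESeq2 1.42.0, limma-voom (limma 3.58.1), no robust estimation, no filter, a filter at 5 CPM in 2 libraries, unrounded counts, a replicate block and leaving out each library. The genes and lists were chosen with earlier results of these data known. Values in every library are given for the urea cycle, the glutamate and glutamine genes and at least the 3 genes of smallest unadjusted p in each further group. From the added lists, the 4 further pathway genes and the 2 regulators of smallest unadjusted p are named.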

Additional observations from a re-analysis of the deposited data

How the results depend on the processing

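Under all 13 alternatives 0 of the 47 genes were called. The median log2 change of the tested members stayed within -0.08 and -0.05 under the alternatives that kept all libraries, and ran from -0.18 without sleep restriction 1 to 0.04 without sleep restriction 2, so its sign rests on 1 library. Of 675 gene values under alternatives 629 kept their direction and 46 were reversed. The direction held in every setting that tested the gene for 27 of the 52 named genes. It changed in some setting for 25, all among the 47. Of the 21 members whose direction held, 17 moved by over 1.5 times when 1 library was left out, and Nags, Got2, Pcbd1 and Gnmt moved by less. The number of members at an unadjusted p under 0.05 was 2 in the edgeR fit and 0 to 2 under the alternatives that kept all libraries, except for 5 with the replicate block (Gpt2, Tdo2, Kmo, Amt and Aass), and 1 to 4 with 1 library left out. With 1 library left out, the lowest and highest log2 change had opposite signs for 25 genes. These ranges were Otc from -0.12 to 0.14, Glud1 from -0.13 to 0.26, Gls2 from -0.16 to 0.052, Glul from -0.22 to 0.47, and Got1 from -0.56 to 0.22. Further ranges were Gpt from -0.45 to 0.083, Agxt from -0.52 to 0.020, Sds from -0.64 to 0.36, Hal from -0.25 to 0.069, and Uroc1 from -0.41 to 0.029. For the next genes they were Ftcd from -0.23 to 0.20, Haao from -0.44 to 0.011, Hpd from -0.31 to 0.14, Mat1a from -0.052 to 0.058, and Ahcy from -0.43 to 0.13. Next came Bhmt from -0.43 to 0.24, Cbs from -0.31 to 0.080, Cth from -0.21 to 1.14, Csad from -0.17 to 1.05, and Sardh from -0.24 to 0.13. The last were Dmgdh from -0.091 to 0.19, Shmt1 from -0.23 to 0.31, Bckdha from -0.43 to 0.046, Hibadh from -0.11 to 0.15, and Prodh2 from -0.95 to 0.027. Other reversals were all close to 0. Ftcd was -0.0071 and Mat1a -0.0068 with upper-quartile factors, Ftcd was -0.0034 with limma-voom, and without a gene filter Otc was -0.0017, Ftcd -0.020 and Mat1a -0.016. With the filter at 5 CPM, Otc was -0.0055, Ftcd -0.024, Mat1a -0.020 and Shmt1 -0.0043. Over the whole table edgeR called 1 gene, DESeq2 called 2, and 0 were called by limma-voom, without robust estimation, without a gene filter, and with any 1 library left out (range 0 to 0).

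The labels number the replicates 1 and 2 in both groups without saying that a number is shared. Deviations of same-numbered libraries from their group means correlated at 0.207 over 4986 genes and at -0.0135 over the tested members. With the replicate block 11 genes were called over the whole table and 0 of the 47, and Ftcd was -0.0013. At 508203 to 520276 counts per library, depth limits low genes such as Amt, which had 3.1 to 12.4 counts. With unrounded counts 45 members were tested, because Amt then fell under the filter.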

Other observations

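Enzymes of amino acid breakdown are placed along the liver lobule, so the log2 changes were also read by zone, on lists of reference genes that share members with the 47. The 5 tested pericentral genes had a median log2 change of -0.05, with 2 positive and 3 negative. The 14 tested periportal entries had a median of 0.02, with 7 positive and 7 negative, and 0 of either list passed the adjusted test. Pck1, the gluconeogenic enzyme that receives carbon from many amino acids, measured 2321 and 2055 CPM under forced activity and 3040 and 1144 CPM under sleep restriction, the highest and lowest library both being in the sleep restriction group. Sleep restriction 1 was likewise the highest and sleep restriction 2 the lowest library for 8 of the 46 tested genes of amino acid breakdown (Gpt, Agxt, Sds, Ftcd, Hpd, Mat1a, Ahcy and Bhmt), or 17.4%, against 7.60% of all tested genes. The 7.60% rests on scaling by totals over all listed genes, and the 17.4% on totals over tested genes.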
